A study of Gallus gallus with 13 samples.

Results

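Sarcomeric muscle genes encode the proteins of the striated muscle contractile unit, and 7 of them were followed here in cultured chicken embryo fibroblasts: ACTC1, ACTA1, MYL4, MYH15, TNNC1, TNNT2 and TNNI1. Members were chosen by gene symbol, as every probe set that the array annotation assigns to one of these 7 names, out of 13008 genes with a symbol on the array. The 7 genes were covered by 8 probe sets, 1 for each gene except TNNI1, which had 2. The study profiled total RNA of early-passage White Leghorn fibroblasts taken from embryos at day 10, hybridised to a chicken expression array. All cells were kept at 41.5 °C, below 10 passages, in an insulin- and zinc-containing medium, with 5% calf serum except where serum was withdrawn. The 4 groups were cycling cells collected in logarithmic growth (n = 3), contact-inhibited cells at 100% confluence with refreshed serum medium (n = 4), serum-starved cells moved from the cycling state into medium without serum (n = 3), and cells that were confluent and then also deprived of serum (n = 3), called doubly arrested below. The labels give no duration of starvation. They call the cultures biological replicates but name no embryos. The p-values therefore reflect variation among these cultures, part of which may be technical.

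In striated muscle, thin filaments of actin slide past thick filaments of myosin, and the troponin complex on the thin filament makes this movement depend on calcium. ACTC1 (cardiac actin) and ACTA1 (skeletal actin) form the thin filament, MYH15 (in the chicken the ventricular myosin heavy chain VMHC1) and MYL4 (the atrial and embryonic essential light chain) belong to the thick filament, and TNNC1 binds calcium, TNNI1 inhibits the filament and TNNT2 anchors the complex to tropomyosin. Cultured fibroblasts are not striated muscle, but many carry actin genes whose transcription depends on serum response factor, SRF, and its actin-sensing cofactors.

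Signals are the authors' linear array intensities, comparable between arrays for 1 probe set but not between probe sets. A change is the difference of group means of log2(signal + 16), given with its standard error, and it understates the ratio of low signals. Each change was tested with limma across 28270 probe sets, and a gene was called when its Benjamini-Hochberg adjusted p lay under 0.05. Probe sets with a mean in the lowest 25% of the array, corresponding to a signal of 22.7, were not tested. Of the 7 genes, 6 were tested. TNNT2 and the second TNNI1 probe set lay under this limit, and MYH15 passed it only through its cycling arrays, so counts over the tested genes are descriptions.

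The 13 arrays had median signals of 50.5 to 66.5 and mean signals of 337 to 370. The ratio of 3' to 5' actin control signal, a measure of RNA integrity, was 2.41 on cycling replicate 3 and 1.27 to 1.89 on the others. Contact-inhibited replicate 1 stood apart from its group. HINTW, a gene of the W chromosome, which only female birds carry, had signals of 84.3 in that array and 1188 to 1311 in contact-inhibited replicates 2 to 4. The W-linked level, a mean over 22 probe sets, was 5.98 to 6.66 in the 6 serum-free cultures, 6.28 (log2) in contact-inhibited replicate 1 and 7.07 to 7.31 in the other cultures, so values with this level as a covariate, or without contact-inhibited replicate 1, are given where they alter a result. Every serum-free culture lay below every cycling culture, so serum removal and the W-linked level cannot be told apart in comparisons of these groups. The covariate rests on differences within groups, mostly those of contact-inhibited replicate 1 and serum-starved replicate 1 (6.66). Its values are therefore not independent of those without contact-inhibited replicate 1. Beyond that covariate, the part of this difference in the results was not tested. Of 20 fibroblast marker genes on the array, 19 lay above the limit on every array, TCF21 being the exception. Many markers of other cell types passed this limit as well, as given below. VIM, an intermediate filament gene of mesenchymal cells, ranged from 13349 to 15527 over all arrays and was called in no comparison with cycling cells.

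Of the 6 tested sarcomeric genes, 5 were lower when contact-inhibited cells were set against cycling cells (ACTC1, ACTA1, MYL4, MYH15 and TNNC1) and 0 were higher (also at an unadjusted p under 0.05), where 21.9% of all 11498 tested genes were called lower and 18.7% higher. The same 5 genes were lower in serum-starved cells, and 0 were higher, against 9.71% lower and 11% higher over all genes. In doubly arrested cells 4 were lower (ACTC1, MYL4, MYH15 and TNNC1) and 0 higher, against 16.1% and 18.6%. The median change of the 6 genes was -2.90, -2.56 and -2.66 in the 3 comparisons, beside medians of 0.0163, 0.0131 and 0.0191 over all tested genes. The 3 comparisons share the cycling arrays. The members were chosen with earlier results of these data known. Their counts and medians therefore describe these genes and do not test sarcomeric genes as a set. In these bulk cultures, fewer cells of a type and less RNA per cell cannot be told apart.

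**Figure D1:**
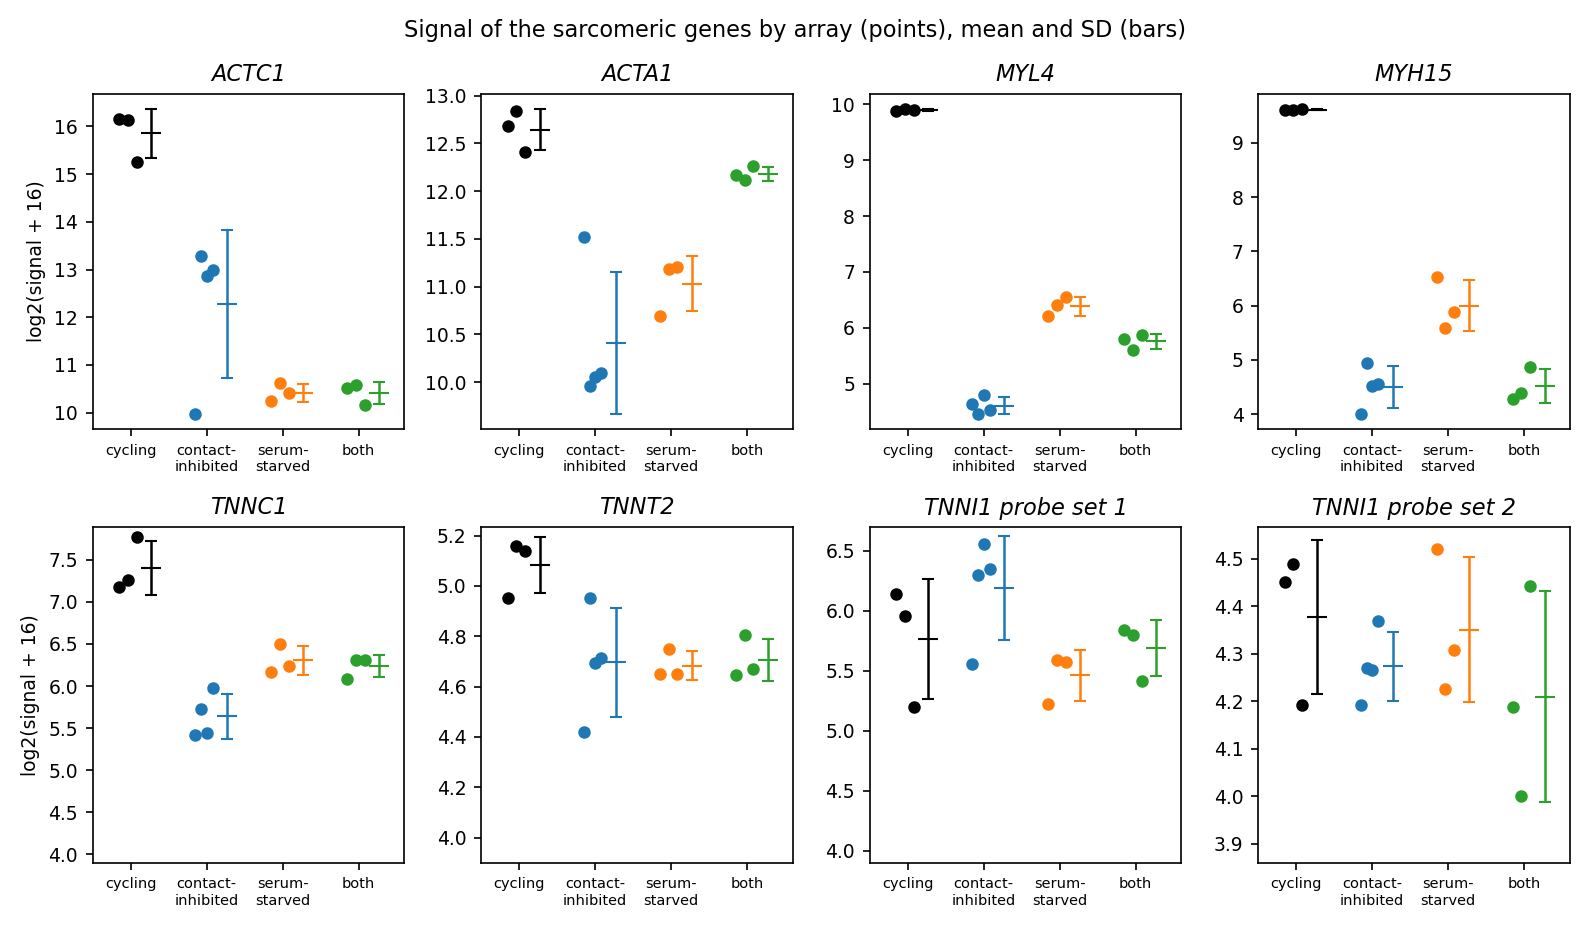
Log2(signal + 16) of the 8 probe sets on each of the 13 arrays, by culture group (both: contact-inhibited and serum-starved), with a separate vertical scale for each panel; points are arrays, bars give the mean and SD. The cycling arrays stand above all arrested arrays for ACTC1, ACTA1, MYL4, MYH15 and TNNC1, while the groups overlap for both TNNI1 probe sets, of which the first is the tested one.

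ACTC1 (Entrez gene 423298) had signals of 73318, 72167 and 39089 in the 3 cycling cultures. Contact-inhibited cultures gave 989, 9907, 7447 and 8176. The serum-starved cultures had 1190, 1555 and 1343, and the doubly arrested cultures 1460, 1515 and 1126. Every arrested array lay below every cycling array, and contact-inhibited replicate 1 lay below the 6 serum-free arrays, apart from the rest of its group. The group means were 61524 ± 19438 (SD, n = 3), 6630 ± 3900 (n = 4), 1363 ± 183 (n = 3) and 1367 ± 211 (n = 3), so arrested cells retained 10.8%, 2.21% and 2.22% of the cycling mean.

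The change of ACTC1 was -3.57 ± 0.59 in contact-inhibited cells (adjusted p = 0.000438), -5.43 ± 0.63 in serum-starved cells (7.2e-05) and -5.43 ± 0.63 in doubly arrested cells (3.95e-05). Each of these falls stayed past the threshold in all 26 alternative analyses. Without contact-inhibited replicate 1 the first of them was -2.805, and with quantile normalization it was -2.23. With the W-linked level as a covariate the changes were -3.35, -3.54 and -3.32. ACTC1 was also lower in serum-starved than in contact-inhibited cells (-1.86 ± 0.59, adjusted p = 0.0417), but this difference was -0.19 with the W-linked covariate (adjusted p = 0.866) and -2.63 without contact-inhibited replicate 1. The difference between doubly arrested and serum-starved cells was 0.00 ± 0.63, with a 95% interval of -1.36 to 1.36.

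ACTA1 (Entrez gene 421534) had cycling signals of 6542, 7328 and 5430. Contact-inhibited cultures had 2919, 982, 1052 and 1080. Starved cultures gave 1645, 2319 and 2342, and doubly arrested cultures 4587, 4423 and 4882. ACTA1 was nearest its cycling level in doubly arrested cells, whose signals stood above those of the other arrested groups. The doubly arrested mean of 4631 ± 233 (SD, n = 3) was 72.0% of the cycling mean of 6433 ± 953, against 23.4% in contact-inhibited and 32.7% in serum-starved cells. Contact-inhibited replicate 1, low for ACTC1, was the highest of its group for ACTA1.

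Skeletal actin fell by 2.23 ± 0.30 in contact-inhibited cells (adjusted p = 8.52e-05) and by 1.61 ± 0.32 in serum-starved cells (0.0038; -2.74 with the W-linked covariate). The doubly arrested arrays were all below the cycling arrays, but the change of ACTA1 of -0.46 ± 0.32 did not pass (adjusted p = 0.297, 95% interval -1.15 to 0.22). It passed without contact-inhibited replicate 1 (adjusted p = 0.022), and was -1.72 with the W-linked covariate. ACTA1 was higher in doubly arrested than in contact-inhibited cells (1.77 ± 0.30, adjusted p = 0.00118), a difference of 0.65 with the W-linked covariate (0.0434). Its difference between doubly arrested and serum-starved cells, 1.15 ± 0.32, did not pass (adjusted p = 0.115) although those arrays did not overlap, and it passed without contact-inhibited replicate 1 (0.00156).

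The log2 difference between ACTC1 and ACTA1 within an array was used to compare how unequally both sarcomeric actins changed, not which was more abundant. It was 3.21 ± 0.33 (SD, n = 3) in cycling cells, -0.61 ± 0.17 (n = 3) in serum-starved cells and -1.76 ± 0.30 (n = 3) in doubly arrested cells. In contact-inhibited cells it was -1.55 on replicate 1 and 3.31, 2.81 and 2.90 on replicates 2 to 4, the last 3 lying within or next to the cycling range of 2.84 to 3.48. Exact permutation tests, two-sided, gave p = 0.1 for serum-starved and for doubly arrested against cycling cells, the smallest that 3 arrays against 3 allow, and p = 0.286 for contact-inhibited against cycling cells. Over the 6 comparisons of this kind the adjusted values were 0.171 to 0.286. With 3 or 4 arrays per group no adjusted value could have fallen under 0.05, so these tests cannot decide whether the difference changed. The serum-free arrays, from -2.10 to -0.46, all lay below the cycling range. So did contact-inhibited replicate 1, whose W-linked level was as low as theirs. With the W-linked covariate the changes of ACTC1 and ACTA1 lay closer together. They were -3.54 and -2.74 in serum-starved cells and -3.32 and -1.72 in doubly arrested cells. For this difference, too, serum removal and the W-linked level cannot be told apart.

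Among thick filament members, MYL4 (Entrez gene 396472) had signals of 929, 953 and 940 in cycling cells. Contact-inhibited cells had 9.03, 5.98, 11.9 and 7.13, all under the limit of 22.7. Serum-starved cells had 58.1, 68.6 and 77.8, and doubly arrested cells 39.6, 32.7 and 42.6. The 4 groups did not overlap, in the order cycling, serum-starved, doubly arrested, contact-inhibited. MYL4 changed by -5.29 ± 0.13 in contact-inhibited (adjusted p = 2.3e-11), by -3.51 ± 0.14 in serum-starved (3.85e-09) and by -4.14 ± 0.14 in doubly arrested cells (5.4e-10). Its means were 940.5 ± 11.6 (SD, n = 3) in cycling and 68.2 ± 9.86 (n = 3) in serum-starved cells, and the latter exceeded the contact-inhibited level by 1.78 ± 0.13 on the log2 scale (9.39e-07). With the contact-inhibited signals under the limit, the size of this difference ran from 0.86 to 2.89 over the alternatives. The MYL4 change in contact-inhibited against cycling cells ran from -6.67 to -3.79. The step between serum-starved and doubly arrested cells was -0.63 ± 0.14 (adjusted p = 0.0498) and kept its side of the threshold in 9 of 26 alternatives. In the last step, doubly arrested cells exceeded contact-inhibited cells by 1.15 ± 0.13 (adjusted p = 4.96e-05), which kept its side in all 26.

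MYH15 (Entrez gene 395534) gave 762, 764 and 776 in cycling cells. It had 0.01, 14.9, 6.90 and 7.55 in contact-inhibited and 3.42, 5.07 and 13.1 in doubly arrested cells, all under the limit. Serum-starved cells had 75.8, 32.1 and 43.2. Both confluent groups overlapped, and the serum-starved arrays lay between them and the cycling arrays. The myosin heavy chain changed by -5.11 ± 0.24 in contact-inhibited (adjusted p = 7.86e-09), by -3.61 ± 0.25 in serum-starved (1.2e-06) and by -5.10 ± 0.25 in doubly arrested cells (3.17e-08). As MYH15 was tested only because its cycling arrays raised its mean over the limit, these p-values are descriptions. MYH15 was lower in doubly arrested than in serum-starved cells, with a difference of -1.49 ± 0.25 (0.0166). All 3 doubly arrested arrays being under the limit, its size depended on the offset (-0.67 with 64 and -2.74 with 1), and it kept its side of the threshold in 20 of 25 alternatives. The confluent groups differed by 0.01 ± 0.24 (95% interval -0.50 to 0.52). In cycling cells the coefficient of variation over the 3 arrays was 1.03% for MYH15 and 1.24% for MYL4, against 31.6% for ACTC1 and 14.8% for ACTA1. Both actins were lowest on cycling replicate 3, the array with the highest 3' to 5' actin control ratio (2.41). The part of RNA integrity in this spread was not tested.

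Of the troponins, TNNC1 (Entrez gene 396032) had cycling signals of 129, 138 and 202. Contact-inhibited cultures gave 26.7, 36.9, 27.5 and 47.1. Serum-starved cultures had 56.1, 74.7 and 59.6, and doubly arrested cultures 51.7, 63.3 and 63.5. Troponin C was lowest in the contact-inhibited arrays, which overlapped no other group, while both serum-free groups overlapped. It changed by -1.76 ± 0.18 (adjusted p = 8.49e-06), by -1.098 ± 0.19 (0.00156) and by -1.17 ± 0.19 (0.00053) in contact-inhibited, serum-starved and doubly arrested cells. TNNC1 was higher in serum-starved than in contact-inhibited cells by 0.66 ± 0.18 (0.0179), and in doubly arrested than in contact-inhibited cells by 0.59 ± 0.18 (0.0345), calls that kept their side of the threshold in 23 and 18 of 26 alternatives. With the W-linked covariate the adjusted p-values were 0.0553 and 0.0961.

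TNNT2 (Entrez gene 396433) stayed under the limit on every array, with 15.0, 19.7 and 19.2 in cycling cells, 5.42 to 15.0 in contact-inhibited cells and 9.03 to 11.9 in the 6 serum-free cultures. With no filter its changes were -0.39, -0.40 and -0.38, with adjusted p-values of 0.0307, 0.0636 and 0.0529. TNNI1 (Entrez gene 421161), the slow skeletal troponin I, was the tested member that passed in no comparison of the main fit. Its tested probe set had 54.4, 46.0 and 20.8 in cycling, 31.0, 62.8, 77.8 and 65.6 in contact-inhibited, 21.2, 32.1 and 31.7 in serum-starved and 41.2, 39.7 and 26.7 in doubly arrested cells. All groups overlapped the cycling group. The TNNI1 changes were 0.42 ± 0.25 (adjusted p = 0.214, 95% interval -0.12 to 0.97), -0.30 ± 0.27 (0.488) and -0.08 ± 0.27 (0.855). Without contact-inhibited replicate 1 the first of these was 0.64 and passed (adjusted p = 0.04). Serum-starved and doubly arrested cells differed from contact-inhibited cells by -0.73 ± 0.25 (0.0586) and -0.50 ± 0.25 (0.193). Without that array these differences were -0.94 and -0.72. They kept their side of the threshold in 16 and 22 of 25 alternatives. The other TNNI1 probe set read 0 to 6.93 on all arrays.

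**Figure D2:**
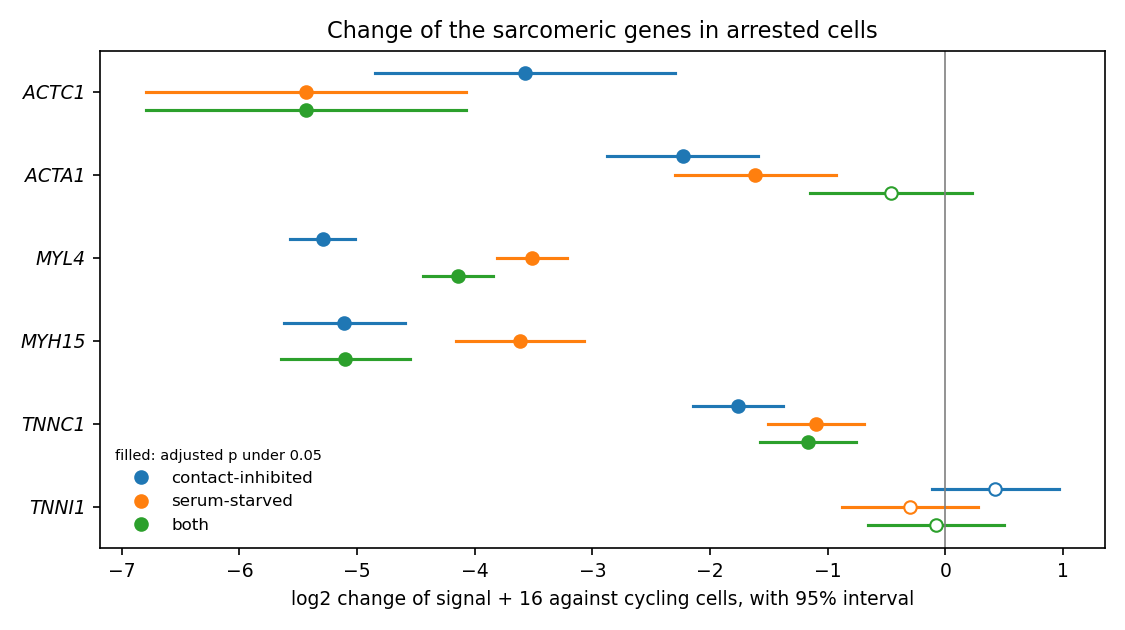
Log2 change of signal + 16 against cycling cells for the 6 tested sarcomeric genes in contact-inhibited, serum-starved and doubly arrested cells (both), with 95% intervals; filled points have an adjusted p under 0.05. ACTC1, MYL4, MYH15 and TNNC1 are lower in all 3 comparisons, ACTA1 in contact-inhibited and serum-starved cells, and TNNI1 in none.

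Comparisons among the arrested groups asked how far confluence and serum removal differ as routes to arrest. In serum-starved against contact-inhibited cells 3 of 6 sarcomeric genes were higher (MYL4, MYH15 and TNNC1) and 1 lower (ACTC1), against 15.1% higher and 8.60% lower over all genes. In doubly arrested against contact-inhibited cells 3 were higher (ACTA1, MYL4 and TNNC1) and 1 lower (ACTC1), against 13.5% and 7.34%. In doubly arrested against serum-starved cells 2 were lower (MYL4 and MYH15) and 0 higher, against 0.644% and 0.818%. The lower ACTC1 calls of the first and second of these comparisons kept their side of the threshold in 13 and 11 of 26 alternatives.

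Whether serum removal acted the same in confluent as in sparse cells was tested as an interaction. It was positive for 5 of 6 genes and negative for 0, where 8.87% of all genes were called positive and 5.33% negative. For MYL4 the changes in contact-inhibited and serum-starved cells add up to -8.81, while doubly arrested cells differed from cycling cells by -4.14, an interaction of 4.66 ± 0.19 (adjusted p = 1.41e-08). For MYH15 the sum was -8.72 and the observed change -5.10, with both confluent groups under the limit of 22.7. For both myosin genes the sum lies below the lowest value the scale can give, log2(16), so an additive fall could not have been measured and these interactions do not test it. ACTA1 differed in opposite directions between cultures without and with serum, by -1.61 in sparse and by 1.77 in confluent cells. Its interaction was 3.38 ± 0.44 (0.000355). With the W-linked covariate the 2 differences were -2.74 and 0.65. TNNC1 changed by -1.098 and 0.59 (interaction 1.69 ± 0.26, 0.0013). Its changes in contact-inhibited and serum-starved cells add up to -2.86, which would take TNNC1 under the limit of 22.7. The ACTC1 interaction of 3.57 ± 0.86 (0.0188) did not pass with quantile normalization (2.18, adjusted p = 0.0938).

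The smooth muscle and cytoplasmic actins place these changes among the other members of the actin family, whose coding sequences are closely related. Whether their probe sets share targets was not tested. ACTG2, smooth muscle gamma actin, had means of 9370 ± 874 (SD, n = 3), 992 ± 172 (n = 4), 1986 ± 193 (n = 3) and 1687 ± 262 (n = 3) in cycling, contact-inhibited, serum-starved and doubly arrested cells. Its changes were -3.23 ± 0.15, -2.23 ± 0.16 and -2.47 ± 0.16 (adjusted p = 7.29e-09, 1.2e-06 and 2.77e-07). ACTA2, smooth muscle alpha actin, fell in contact-inhibited cells (-1.76 ± 0.19, adjusted p = 1.27e-05), with changes in serum-starved and doubly arrested cells of -0.15 ± 0.20 (0.654) and -0.19 ± 0.20 (0.501). Its interaction, 1.72 ± 0.27, passed (0.00157).

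Cytoplasmic ACTB fell by 0.40 ± 0.06 in contact-inhibited cells (0.000159) and by 0.20 ± 0.06 in doubly arrested cells (0.0253), on 4 and 1 of its 4 tested probe sets, with -0.17 ± 0.06 in serum-starved cells (0.0744). Its other probe sets did not share the direction in serum-free cells, except 1 of them in doubly arrested cells. Their serum-starved and doubly arrested means were 518 and 546 against 426 in cycling cells, 245 and 239 against 224, and 155 and 134 against 151. The brightest ACTG1 probe set changed by -0.03, -0.02 and -0.04 (0.804, 0.882 and 0.723), but the other ACTG1 probe set was called lower in all 3 comparisons, with means of 4100 to 4603 against 6500 ± 212 (SD, n = 3) in cycling cells. SRF changed by -1.72 ± 0.20 (adjusted p = 3.21e-05), -0.84 ± 0.22 (0.0179) and -1.38 ± 0.22 (0.000409), from 899.6 ± 223 (SD, n = 3) to 257 ± 33.8 (n = 4), 494 ± 112 (n = 3) and 330.4 ± 55.1 (n = 3). Its second probe set was also called in contact-inhibited and serum-starved cells, but not in doubly arrested cells.

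**Figure D3:**
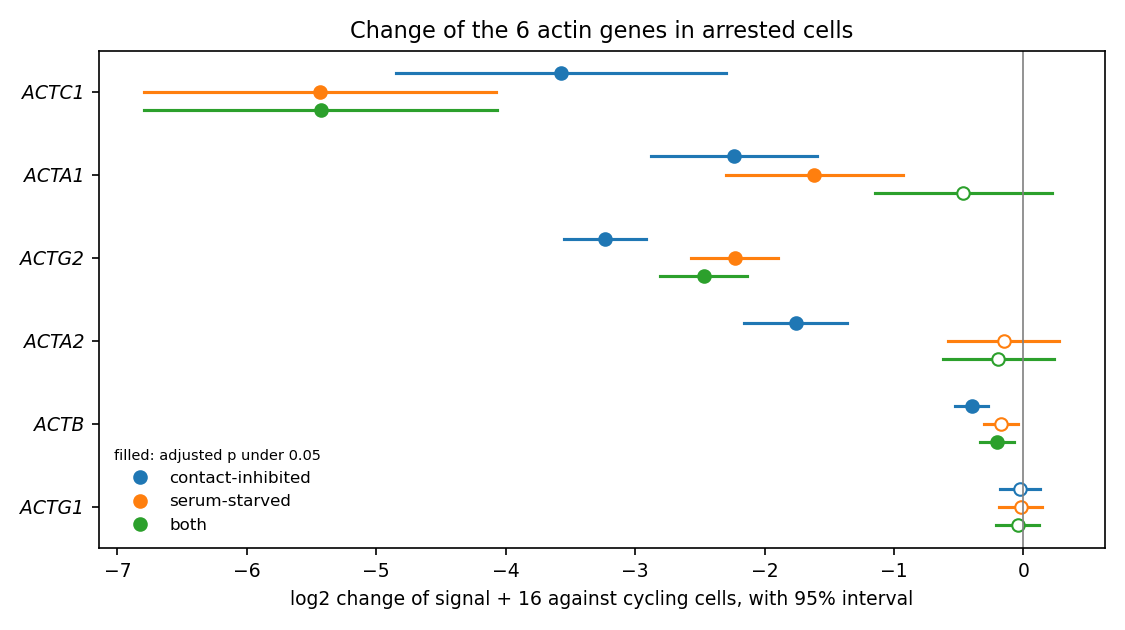
Log2 change of signal + 16 against cycling cells for the 6 actin genes, with 95% intervals; filled points have an adjusted p under 0.05. ACTC1 and ACTG2 are lower in all 3 arrested groups, ACTA2 in contact-inhibited cells, and the plotted ACTG1 probe set in none.

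Other sarcomere genes were counted by the part of the sarcomere they build. Of 9 tested thick filament genes, 2 were lower in contact-inhibited, 1 in serum-starved and 2 in doubly arrested cells, with 0 higher, and list medians of 0.07, -0.16 and 0.03. At an unadjusted p under 0.05, 2, 1 and 0 were higher. The shares of all genes called lower were 21.9%, 9.71% and 16.1%, as given above, and those called higher 18.7%, 11% and 18.6%. These shares also stand beside the thin filament counts below. MYH1E, a skeletal myosin heavy chain, changed by -3.85 ± 0.20, -3.15 ± 0.21 and -3.01 ± 0.21 (adjusted p = 2.28e-08, 7.6e-07 and 6.4e-07), from a mean of 366 to 9.46, 25.2 and 29.7. Like MYH15, it passed the limit only through its cycling arrays, so its p-values and its part in these counts are descriptions. Other listed genes were not checked for this. MYLPF, the fast skeletal regulatory light chain, fell in contact-inhibited cells (-0.71 ± 0.13, 0.00103) and MYL3 in doubly arrested cells (-0.62 ± 0.21, 0.0404). Myosin genes close in sequence may share probes, which was not tested.

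Of 10 tested thin filament genes, 4 were lower in contact-inhibited, 0 in serum-starved and 1 in doubly arrested cells, and 0 were higher, and at an unadjusted p under 0.05 limma gave 1 lower in serum-starved and 1 higher in contact-inhibited cells. The 4 were the tropomyosins TPM1 (-0.50 ± 0.09, adjusted p = 0.000931), TPM2 (-0.51 ± 0.07, 0.000179) and TPM3 (-0.73 ± 0.11, 0.000277), which also have non-muscle forms, and the fast troponin I gene TNNI2 (-1.21 ± 0.21, 0.000681). TPM3 was also lower in doubly arrested cells (-0.41 ± 0.12, 0.022).

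Z disc and costamere genes went both ways, with 3 of 17 lower and 2 higher in contact-inhibited, 3 and 2 in serum-starved, and 4 and 3 in doubly arrested cells. Over all genes, 21.9%, 9.71% and 16.1% were lower and 18.7%, 11% and 18.6% higher. FHL2, a LIM domain protein, changed by -4.43 ± 0.17, -3.75 ± 0.19 and -3.54 ± 0.19 (1.99e-09, 4.4e-08 and 4.96e-08), and XIRP1, an actin-binding protein of the intercalated disc, by -2.82 ± 0.13, -2.60 ± 0.14 and -2.40 ± 0.14 (7.55e-09, 9.46e-08 and 1.28e-07). ANKRD1 fell in contact-inhibited cells (-4.11 ± 0.62, 0.000214) and PDLIM3 in serum-starved cells (-2.28 ± 0.34, 0.00051). XIRP1 lay under the limit on at least 1 array of every arrested group. So did FHL2 in contact-inhibited and PDLIM3 in serum-starved cells. Whether these genes passed the limit only through their cycling arrays was not checked. The LIM protein gene FHL1 rose by 2.82 ± 0.32, 1.72 ± 0.34 and 2.79 ± 0.34 (2.27e-05, 0.0039 and 5.89e-05), and the intermediate filament gene SYNM rose in doubly arrested cells (1.46 ± 0.28, 0.00174). Of 7 calcium handling and energy genes, LDHB, the heart form of lactate dehydrogenase, was lower in contact-inhibited (-1.13 ± 0.11, 7.21e-06) and doubly arrested cells (-0.76 ± 0.12, 0.000442), with 0 of the 7 called in serum-starved cells, where 2 were lower and 1 higher at an unadjusted p under 0.05.

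Smooth muscle and cytoplasmic contractile genes were lower for 13 of 19 in contact-inhibited cells, 5 in serum-starved and 6 in doubly arrested cells, with 0 higher and list medians of -0.46, -0.19 and -0.20. Over all genes, 21.9%, 9.71% and 16.1% were called lower and 18.7%, 11% and 18.6% higher. At an unadjusted p under 0.05, limma gave 1 gene of this list higher in serum-starved and 1 in doubly arrested cells. MYL9, the smooth muscle regulatory light chain, changed by -1.38 ± 0.08, -0.65 ± 0.09 and -0.66 ± 0.09 (8.54e-08, 0.000222 and 0.000101). TAGLN, an actin-binding protein, fell by 1.25 ± 0.09 in contact-inhibited cells (5.1e-07). CNN2, a calponin, fell by 1.69 ± 0.42 in serum-starved (0.0149) and by 2.84 ± 0.42 in doubly arrested cells (0.000275), on 1 of its 2 tested probe sets.

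**Figure D4:**
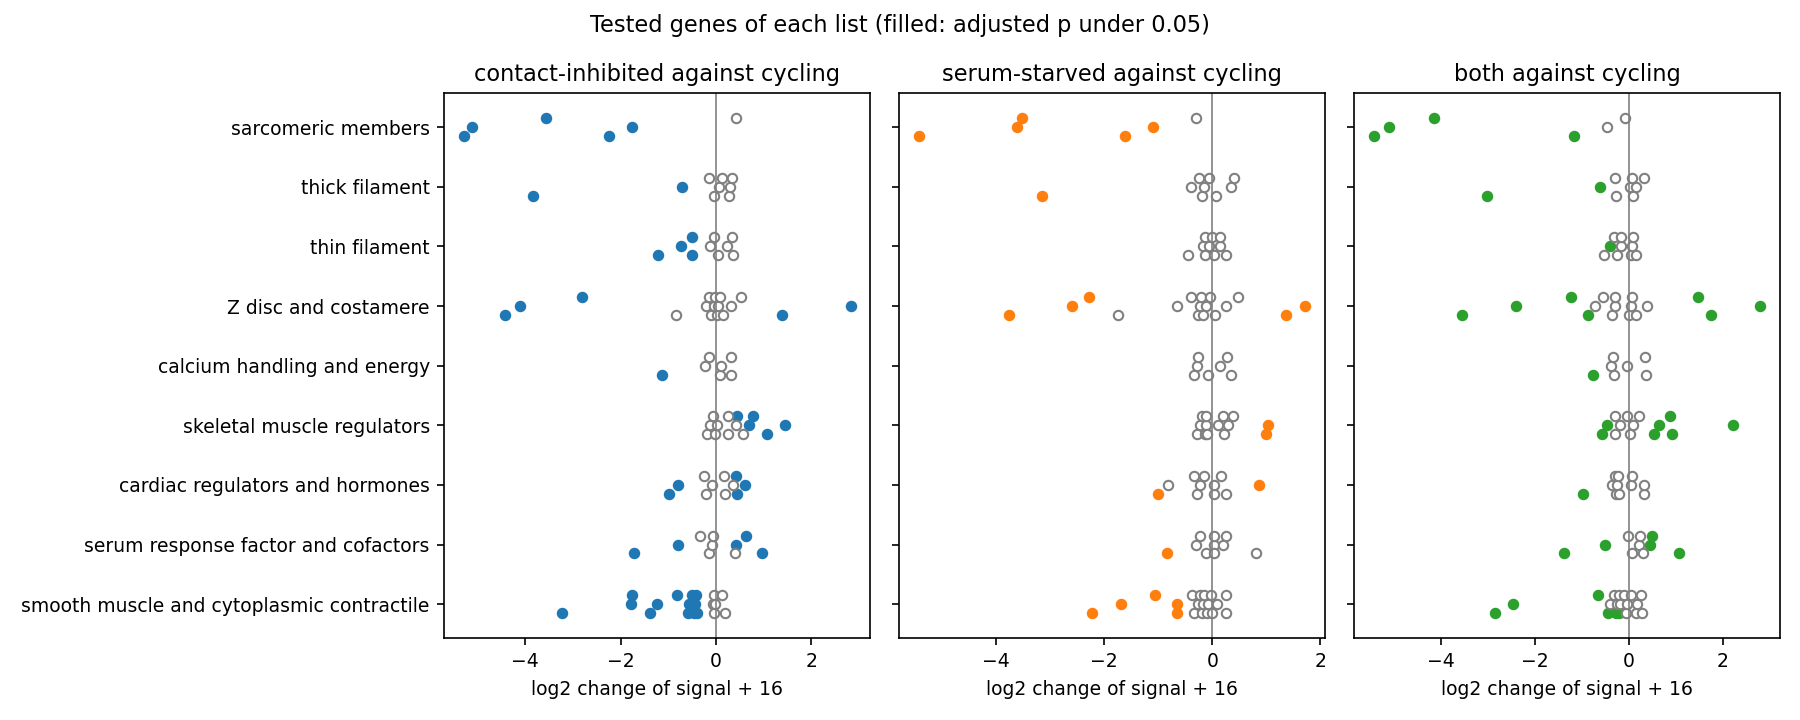
Log2 change of signal + 16 against cycling cells for each tested gene of the sarcomeric members and of 8 muscle-related lists, in 3 panels for contact-inhibited, serum-starved and doubly arrested cells (both); filled points have an adjusted p under 0.05 and the points are spread vertically only for display. Of the 6 members, 5, 5 and 4 are lower, beside 2, 1 and 2 of 9 thick filament genes. Smooth muscle and cytoplasmic contractile genes are lower for 13, 5 and 6 of 19. Over all tested genes the shares called lower were 21.9%, 9.71% and 16.1%.

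Regulators of the muscle lineages were read next. MYOD1, MYOG and MYF5, which specify and drive skeletal muscle differentiation, had signals of 15.99 to 51.3, 20.4 to 31.5 and 22.6 to 39.8 over all 13 arrays and were called in no comparison, nor did any reach an unadjusted p under 0.05. NKX2-5, a cardiac transcription factor, lay under the limit on all arrays (10.1 to 21.9), and GATA4 was called in none, its lowest unadjusted p-values being 0.0202 for the interaction (-0.56) and 0.0319 in contact-inhibited cells. Of 14 skeletal muscle regulators, 0 were lower and 5 higher in contact-inhibited cells, 0 and 2 in serum-starved, and 2 and 5 in doubly arrested cells. Beside this list and those of the next paragraph, 21.9%, 9.71% and 16.1% of all genes were lower and 18.7%, 11% and 18.6% higher. MEF2A rose by 0.78 ± 0.10 (5.08e-05) in contact-inhibited and 0.63 ± 0.10 (0.000603) in doubly arrested cells. DOK7, an adaptor of the neuromuscular synapse, rose by 1.45 ± 0.25, 0.99 ± 0.27 and 2.21 ± 0.27 (0.000646, 0.0226 and 5.93e-05). The acetylcholine receptor gene CHRND rose by 1.07 ± 0.24 in contact-inhibited (0.00326) and 1.03 ± 0.25 in serum-starved cells (0.0133), and CHRNA1 by 0.69 ± 0.16 in contact-inhibited cells (0.00412). MEF2C rose in contact-inhibited cells (0.45 ± 0.13, 0.0148), EYA2 rose (0.93 ± 0.24, 0.0107) and TMEM8C, a myoblast fusion gene, fell (-0.47 ± 0.13, 0.0167) in doubly arrested cells.

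Cardiac regulators counted 2 lower and 3 higher of 11 in contact-inhibited, 1 and 1 in serum-starved, and 1 and 0 in doubly arrested cells. HAND2 changed by -0.81 ± 0.14, -0.996 ± 0.15 and -0.97 ± 0.15 (0.00057, 0.000508 and 0.000322), and GATA6 by -0.99 ± 0.26 in contact-inhibited cells (0.0096). TBX5 (0.44 ± 0.14, 0.0303) and BVES (0.60 ± 0.19, 0.0233) rose in contact-inhibited cells, and BVES rose in serum-starved cells (0.87 ± 0.20, 0.00954). Of SRF and 9 genes grouped with it, 2 were lower and 3 higher in contact-inhibited, 1 and 0 in serum-starved, and 2 and 3 in doubly arrested cells. The cofactor genes MKL2 (0.97 ± 0.28, 0.0148) and ELK4 (0.63 ± 0.12, 0.00118) rose in contact-inhibited cells, and again in doubly arrested cells by 1.07 ± 0.30 (0.0153) and 0.45 ± 0.13 (0.0183). MYOCD, an SRF coactivator, rose on 1 probe set (0.41 ± 0.14, 0.0328) and was lower on the other in contact-inhibited cells.

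The genes nearest in pattern were ranked by the root mean square difference of centred log2 values over the 13 arrays, among 11008 candidate genes, as a description. Nearest to ACTC1 was DLX5, a homeobox gene, at 0.836, followed by CRMP1 (1.08), COL2A1 (1.12), GJC3 (1.13) and ID1 (1.19). DLX5 had means of 1905, 418, 107 and 82.4 in cycling, contact-inhibited, serum-starved and doubly arrested cells, and 240.2 on contact-inhibited replicate 1, the lowest of its group. Nearest to MYL4 were PKP2, a plakophilin, at 0.414, then ID2 and FHL2 (0.531 each), MYH1E (0.642) and ACTG2 (0.808), and MYH15 lay at 0.557. For MYH15 they were PKP2 (0.698), FHL2 (0.722), CRMP1 (0.741), ID1 (0.747) and ID2 (0.774). ACTC1 lay farther from its fellow actin ACTA1 (2.21) than from MYH15 (1.41) or MYL4 (1.66).

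In the RefSeq gene order, ACTC1 lies between AQR and GJD2, neither of which was called against cycling cells. Beside ACTA1, NUP133 was lower in contact-inhibited (-0.49, adjusted p = 0.0404) and CCSAP in doubly arrested cells (-0.43, 0.0154). Beside TNNC1, RPL29 was higher in contact-inhibited (0.25, 0.00676) and doubly arrested cells (0.27, 0.00867), and NISCH in serum-starved cells (0.53, 0.0441). CDC27, beside MYL4, was called in none. KIAA1524, beside MYH15, was lower in all 3 comparisons (-1.17, -1.16 and -1.9, with adjusted p-values of 0.000222, 0.000962 and 1.06e-05), while HHLA2 on the other side was called in none. TNNI1 and TNNT2 share a chromosome with 1 protein-coding gene between them, LAD1, which was lower in contact-inhibited cells (-0.71, 0.0404).

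Markers of other cell types were read beside these results. In contact-inhibited, serum-starved and doubly arrested cells, 21.9%, 9.71% and 16.1% of all genes were lower and 18.7%, 11% and 18.6% higher. Of 7 cartilage markers, 6 lay above the limit in cycling cells, ACAN being the exception, and none read 0 on all arrays of a group. Their summed signal was 12619 to 13977 in cycling, 3110 to 4729 in contact-inhibited, 4160 to 4599 in serum-starved and 4373 to 5029 in doubly arrested cells, falling where sarcomeric genes fell. By gene, 2 were lower and 3 higher in contact-inhibited, 3 and 2 in serum-starved, and 3 and 1 in doubly arrested cells, with list medians of 0.19, 0.03 and -0.06. COL2A1 carried most of the sum in cycling cells, with a mean of 10319 in cycling and 694 to 888 in arrested cells on its brightest probe set, and the fall was seen on 1 of its 5 tested probe sets. The part of this difference in the sarcomeric results was not tested. Epithelial (4 tested) and neural markers (6 tested) had 0 genes called by limma in the 3 comparisons, and 1 gene of each list was lower at an unadjusted p under 0.05 in doubly arrested cells. EPCAM, CDH1 and CLDN3 lay under the limit on at least 1 array of every group, as did the endothelial marker CDH5. In each group, 4 of 7 epithelial, 4 to 6 of 7 neural, 7 to 8 of 9 endothelial and 8 of 8 blood and immune markers passed it on every array. Passing the limit therefore does not mark a cell type. Of 8 endothelial markers, 2 were lower and 1 higher in contact-inhibited and 1 lower and 2 higher in each serum-free group, and their summed signal was 1153 to 1410 in cycling and 1527 to 2419 in arrested cells. Of 8 blood and immune markers, SPI1 was higher in contact-inhibited cells (0.57 ± 0.19, 0.0296) and 0 others were called. Fibroblast markers had 1 lower and 8 higher of 19 in contact-inhibited, 0 and 7 in serum-starved, and 1 and 9 in doubly arrested cells. Collagen VI genes led them, COL6A1 by 2.12 ± 0.07, 1.31 ± 0.07 and 1.69 ± 0.07 (adjusted p = 3.08e-10, 1.53e-07 and 9.46e-09).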

How the data were processed

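Per the labels' protocols, 15 µg of total RNA with an integrity index of at least 9.7 was labelled with biotin for each of 13 arrays. Per the submitters' processing notes, the authors deposited PLIER intensity values from Affymetrix Expression Console 1.1; the sources used here give no normalization settings. Of 38535 probe sets, 37693 for chicken transcripts were used. Deposited intensities were taken as log2(signal + 16), probe sets under the 25th percentile of the mean were left out, and group means over all arrays were fitted with limma 3.58.1 (R 4.3.3; lmFit, eBayes with trend, 9 residual and 4.33 prior degrees of freedom), tested on simulated data. For each gene the probe set with the highest mean stands for it. GEO's platform annotation gave 1 symbol for most probe sets, several for 177 and none for 10350. The p-values were two-sided and adjusted by Benjamini-Hochberg within each of 7 comparisons. The members and lists were chosen with earlier results of these data known. Genes named are all members, up to 4 genes of each list with the smallest adjusted p in each comparison with cycling cells, a fixed set of actins and regulators, and the 5 nearest in pattern. The number of arrays limits the precision. Alternatives covered scaling, the offset, the filter, array weights, probe set choice, the replicate block, the W-linked level and arrays left out.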

Additional observations from a re-analysis of the deposited data

Results flagged for a closer look

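Contact-inhibited replicate 1 stood apart from the other 3 contact-inhibited arrays for 3 genes by Dixon's test on the log2 scale, in which its gap to the nearest array, as a share of the group's range, was above the 95% critical value. The share was 0.876 for ACTC1, 0.914 for ACTA1 and 0.962 for HINTW, among 25 groups tested, of which chance gives about 5%.

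The effect of serum removal differed between confluent and sparse cells by the limma interaction test for 11 genes. Only the members and the fixed set of actins, regulators, fibroblast genes and HINTW were examined for this. Over all tested genes, 8.87% were called positive and 5.33% negative. With the sparse-cell log2 change on serum removal subtracted from the confluent-cell change, the difference was 3.57 for ACTC1, 3.38 for ACTA1, 4.66 for MYL4, 3.62 for MYH15 and 1.69 for TNNC1, whose falls in sparse cells were smaller (ACTC1), near 0 (MYH15) or turned into rises (ACTA1, MYL4, TNNC1) in confluent cells. For MYL4 and MYH15 the contact-inhibited arrays were under the limit, so a further fall could not have been measured there. An additive TNNC1 fall would also have ended under the limit. Outside these members it was 1.18 for SRF (adjusted p = 0.0232), 1.72 for ACTA2, 2.99 for ACTG2 (2.25e-06), 0.372 for ACTB (0.014), 0.375 for FN1 (0.0277) and -0.382 for COL1A2 (0.0221).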

How the results depend on the processing

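The calls of ACTC1, MYL4, MYH15 and TNNC1 against cycling cells, and of ACTA1 in contact-inhibited and serum-starved cells, kept direction and side of the threshold in each alternative that tested them, as did the interaction of ACTA1, MYL4, MYH15 and TNNC1. For MYL4 and MYH15 this does not make the interaction a test of additivity, as their summed changes lie below the scale. Of all log2 changes of members recomputed under the alternatives, 963 kept their side, 61 lost the call, 28 gained one and 20 changed sign.

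Counts of called members moved in comparisons among arrested groups. In serum-starved against contact-inhibited cells the 1 lower member became 2 with centred arrays, quantile normalization, offset 64, array weights, averaged probe sets and without both cycling replicate 3 and contact-inhibited replicate 1, and 0 with the replicate block and with the W-linked covariate. In doubly arrested against contact-inhibited cells the 1 lower member became 0 with offset 1, the compared arrays alone, the replicate block and the W-linked covariate, and 2 with array weights and without both arrays. In doubly arrested against serum-starved cells the 2 lower members became 1 with centred arrays, quantile normalization, offset 64, a median filter and no filter, and 0 with offset 1 and the replicate block, while the 0 higher became 1 with array weights, the compared arrays alone, the W-linked covariate and without both arrays. The cause of these moves was not tested.

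Over all genes, calls rose with array weights from 2384 to 3888 (serum-starved against cycling), 2726 to 4259 (serum-starved against contact-inhibited), 2399 to 4603 (doubly arrested against contact-inhibited), 168 to 1825 (doubly arrested against serum-starved) and 1633 to 3541 (interaction). The count of 168 became 478 with the compared arrays alone, 53 with the replicate block, 347 with the W-linked covariate and 1058 without both arrays, the interaction count 2494 without both arrays, and the count of 3988 for doubly arrested against cycling cells 2554 with the covariate.

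Leaving out 1 array at a time gave 18 to 471 genes for doubly arrested against serum-starved, 1380 to 3019 for serum-starved against cycling, 1552 to 3039 for doubly arrested against contact-inhibited and 1043 to 2048 for the interaction. Called members ranged from 0 to 1 higher in contact-inhibited against cycling (1, TNNI1, without contact-inhibited replicate 1), 2 to 4 higher and 0 to 2 lower in serum-starved against contact-inhibited, 2 to 3 higher and 0 to 2 lower in doubly arrested against contact-inhibited, and 0 to 1 higher and 0 to 2 lower in doubly arrested against serum-starved cells.

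Signs changed for values near 0 or with the W-linked covariate. With the covariate, ACTA1 in serum-starved against contact-inhibited cells was -0.37, ACTC1 in doubly arrested against contact-inhibited cells 0.0304, and TNNI1 against cycling cells 0.12 when starved and 0.40 when doubly arrested. ACTC1 in doubly arrested against serum-starved cells was -0.046 with quantile normalization and -0.091 to 0.13 with 1 array left out. MYH15 in doubly arrested against contact-inhibited cells was -0.0011 with offset 64, -0.17 with array weights, -0.16 without both arrays and -0.17 to 0.16 with 1 array left out. Leaving out 1 array gave TNNC1 -0.137 to 0.0293 in doubly arrested against serum-starved cells, and TNNI1 -0.36 to 0.11 in doubly arrested against cycling cells and -0.412 to 0.0813 for the interaction.

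Centring each array moved the median change of all genes from 0.0163 to -0.0988 in contact-inhibited and from 0.0131 to -0.105 in serum-starved cells, and from 0.00245 to 0.138 for the interaction. The share of calls that were higher moved from 46.1% to 34.2%, from 53.1% to 37.8% and, in doubly arrested cells, from 53.5% to 43.3%, and for the interaction from 62.5% to 75.9%. With quantile normalization it moved from 64.8% to 52.7% in doubly arrested against contact-inhibited and from 56% to 41.7% against serum-starved cells.

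Residual correlations over 18 same-numbered pairs of arrays ran from -0.293 to 0.382. They were not compared with those of differently numbered pairs, so whether equal replicate numbers mark pairs was not tested. The main fit used no pairing. Signals under the limit, as for MYL4 in contact-inhibited cells and MYH15 in both confluent groups, carry no order.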
